A study of Rattus norvegicus with 20 samples.

Results

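Rat mesenchymal stromal cells (MSCs) that had been primed on a stiff surface and were then either moved to a soft surface or kept on the stiff one are described here. MSCs are connective tissue progenitors of the bone marrow, and on stiff substrates they can become myofibroblasts, contractile cells that lay down and tighten scar tissue. Mechanical memory is the persistence of a state acquired on one stiffness after the cells have been moved to another. The comparison asks how far gene expression follows the new surface when the old one is removed.

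The members were the 4 libraries whose labels give a start on 100 kPa and a total of 5 weeks, of 20 RNA-seq libraries in 8 groups. In the switched group, named 3w100→2w2, cells spent 3 weeks on 100 kPa and then 2 weeks on 2 kPa (2 libraries). In the kept group, named 5w100, cells spent 5 weeks on 100 kPa (2 libraries). Both groups were MSCs from female Wistar rats, purified with beads against CD54 and CD90, grown on gelatin-coated silicone and passaged weekly, and neither received a drug or carried a genetic change in the labels. Each isolate came from one animal. The methods count MSCs of different rats as replicates, but they do not say that a replicate number marks one rat, so the spread between libraries may also hold a technical part. The age of the animals is not given in the sources used here. The deposited table lists Ensembl identifiers without gene names, so neither the labelled cell type nor the purity of the MSCs could be checked against marker genes, and genes appear below by identifier or as groups.

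The 4 libraries were close in depth. The switched libraries held 19072978 and 18093017 counts on genes and the kept libraries 18843735 and 18590110, within a range of 16127907 to 24139128 over the series. They detected 15946 and 16286 genes, and 15754 and 16274 genes, respectively. The 10 most abundant genes of each library took 14.7% and 16.7% of its counts in the switched and 14.8% and 15.9% in the kept group.

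Over the whole transcriptome, the switched cells stayed nearest to the kept cells of the same replicate number. Over the 14034 genes that passed the filter on low counts, the distance in log2 CPM (counts scaled to the library's total, with TMM factors) between the switched and the kept library was 40.4 for number 1 and 39.6 for number 2. Replicates of one group lay further apart, at 84.0 in the switched and 92.4 in the kept group, and libraries of different group and number at 87.7 and 89.2. A shared number thus went with a smaller distance than a shared surface.

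The distances to cells that had finished priming (3w100, 3 weeks on 100 kPa) were as follows. The switched library with number 1 was 62.7 from the 3w100 library of that number and the kept one 67.6. For number 2 these distances were 56.6 and 56.8. Towards cells grown on soft throughout (5w2, 5 weeks on 2 kPa), the same-numbered distances were 72.4 in the switched and 72.8 in the kept library for number 1, and 117.9 and 120.4 for number 2. The switched library was the nearer one in each of these comparisons, to stiff-primed as well as to soft-grown cells. The switched library 2 was nearer than the kept library 2 to every library plotted from 3w100 and the soft-primed groups. For number 1, the kept library was the nearer one to library 1 of 3w2→2w100, cells moved from 2 to 100 kPa after 3 weeks, at 75.5 against 78.1.

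**Figure D1:**
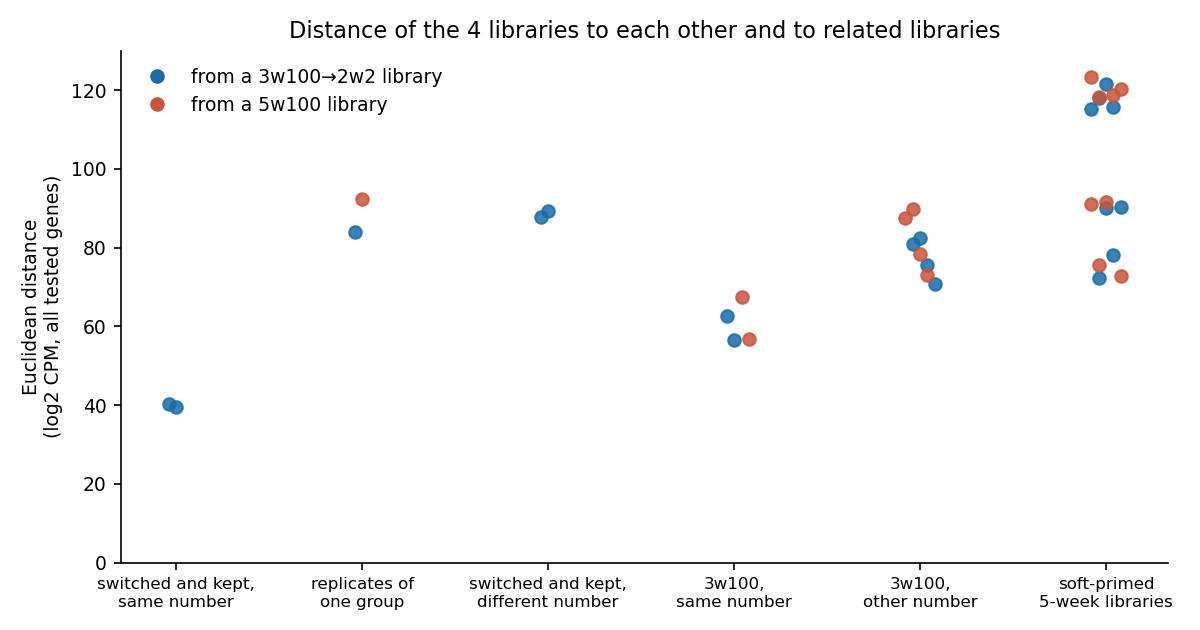
Euclidean distance in log2 CPM over 14034 genes (vertical axis) from each switched (blue) and kept (red) library to the libraries named on the horizontal axis, with 1 point for each pair of libraries. The same-numbered switched and kept libraries, at 40.4 and 39.6, are the closest of all pairs plotted.

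Since the same-numbered libraries resembled each other, the difference switched minus kept was also taken within each number, called pair 1 and pair 2 below. Across genes, the difference between replicates 1 and 2 in the switched group correlated with that in the kept group at r = 0.802 (14034 genes, which are not independent replicates). The pairing therefore rests on the data and not on a statement about the animals.

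No gene passed the test between switched and kept cells when the numbers were left out of the model. edgeR's quasi-likelihood test with Benjamini-Hochberg adjustment called 0 of 14034 genes (0%), and DESeq2 on the same 8 groups also called 0. Without adjustment, 61 genes (0.435%) were higher and 26 (0.185%) lower in the switched cells in edgeR at p below 0.05, and 57 genes lay below that threshold in DESeq2. The smallest unadjusted edgeR p was 0.00165. The 2 libraries of one group did not overlap with those of the other in 1181 genes that were higher (8.42%) and 1140 that were lower (8.12%) in the switched cells.

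With priming surface and number as a block over the 8 libraries of the 5-week groups, which compares each switched library with its own kept partner, 4 of 13112 genes were called by edgeR, 2 higher (0.0153%) and 2 lower (0.0153%) in the switched cells. An edgeR fit with the number as a block on the 4 libraries alone called 7 genes, among them all 4. DESeq2 with that block called 1, the gene ENSRNOG00000008697. The 4 genes are described next, and all 4 had an edgeR adjusted p of 1 without a block.

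ENSRNOG00000015055 was lower in the switched cells. Its level was 31.6 and 29.0 CPM in the switched libraries with numbers 1 and 2, and 51.1 and 81.3 CPM in their kept partners, from 583, 510, 893 and 1486 counts. Both switched libraries lay below both kept libraries. The mean was 30.3 ± 1.79 CPM (SD, n = 2) after the switch and 66.2 ± 21.4 CPM (SD, n = 2) without it. The blocked log2 fold change was -1.10 (standard error 0.13, edgeR adjusted p = 1.65e-06), with differences of -0.69 and -1.48 in the separate pairs. Here and below, an edgeR standard error is the absolute log2 fold change divided by the square root of the F statistic. It does not measure the spread between the 2 pairs alone. DESeq2 with the number as a block on the 4 libraries gave a standard error of 0.389 (DESeq2 adjusted p = 0.9998). This gene had been almost silent at the start on 100 kPa, with 2 to 5 counts in the 1-week libraries (1w100), and was at 5.62 to 24.6 CPM in the 3w100 libraries. The switched cells therefore stood above every 3w100 library and below every 5w100 library. In soft-primed cells it was at 0.335 and 4.96 CPM in 5w2 and at 0.242 and 7.77 CPM in 3w2→2w100.

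ENSRNOG00000008697 showed the same order at a higher level. It was at 247 and 208 CPM in the switched libraries and at 399 and 305 CPM in the kept ones, and the groups did not overlap. The blocked log2 fold change was -0.63 (standard error 0.10, edgeR adjusted p = 0.000369), with differences of -0.69 and -0.55 in the separate pairs. The 3w100 libraries held 139 to 160 CPM and the 1w100 libraries 24.4 to 75.0 CPM. As with the gene before, the switched libraries were above all 3w100 and below all 5w100 libraries. Soft-primed cells held between 9.01 and 78.0 CPM of it over their 4 libraries.

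ENSRNOG00000019648 was higher in the switched cells within each pair, but not between the groups as a whole. Pair 1 held 285 CPM after the switch and 193 CPM without it, and pair 2 held 62.2 and 28.4 CPM. The switched library of number 2 was thus below the kept library of number 1, and the groups overlapped. The blocked log2 fold change was 0.81 (standard error 0.11, edgeR adjusted p = 7.58e-05), with differences of 0.56 and 1.13 in the separate pairs. DESeq2 with the number as a block on the 4 libraries gave a standard error of 0.279 (DESeq2 adjusted p = 0.9998). On 100 kPa the gene had gone from 490 to 942 CPM in the 1w100 libraries to 126 to 233 CPM in the 3w100 libraries. Without the block, leaving out the switched library 1 or the kept library 2 turned the sign, to a log2 fold change of -0.83 or -0.16.

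ENSRNOG00000019422 was also higher after the switch, at 68.6 and 58.7 CPM against 49.7 and 39.8 CPM in the kept partners. The groups did not overlap, and the pair differences of 0.46 and 0.56 log2 units were similar in size. The blocked log2 fold change was 0.51 (standard error 0.10, edgeR adjusted p = 0.0446). The 3w100 libraries (40.8 to 51.0 CPM) were close to the kept cells, and the 1w100 libraries (55.3 to 73.2 CPM) covered the range of the switched cells.

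**Figure D2:**
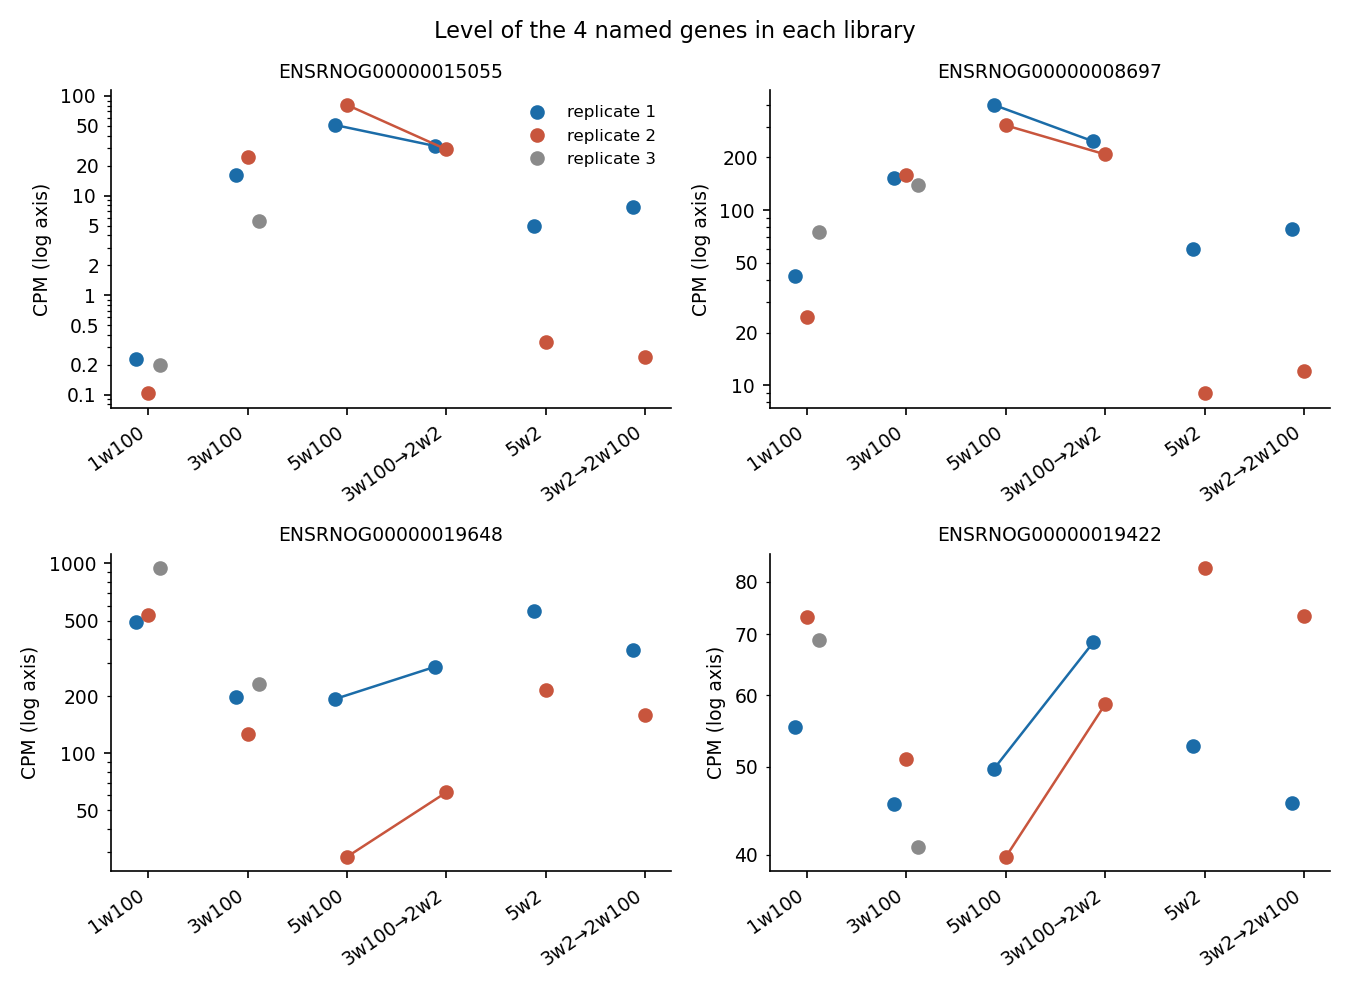
CPM on a log axis of the 4 genes called with the block, with 1 point for each library of the groups on the horizontal axis, coloured by replicate number. Lines join the 5w100 and 3w100→2w2 libraries of one number. Both lines fall for ENSRNOG00000015055 and ENSRNOG00000008697 and rise for the other two, by 1.38 to 2.80 times.

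The 4 calls depended on which pairs were in the fit. Without pair 1 the blocked fit called 2 of the 4, and without pair 2 it called 0 of them, although each kept its direction. For ENSRNOG00000015055 the log2 fold change was -1.49 without pair 1 and -0.70 without pair 2 (edgeR adjusted p = 0.163 without pair 2), and for ENSRNOG00000019648 it was 1.13 and 0.56 (edgeR adjusted p = 0.588 without pair 2). ENSRNOG00000008697 was at -0.55 without pair 1 and -0.70 without pair 2, with edgeR adjusted p of 0.520 and 0.0537. ENSRNOG00000019422 was at 0.56 and 0.46, with edgeR adjusted p of 0.777 and 1, so these last 2 genes lost the call without either pair at about the same fold change. With 1 stiff-primed pair left, that fit takes its spread from the soft-primed pairs. The size of the differences did not set the 4 apart, since ENSRNOG00000015055, the most changed of them, ranked 71 among the tested genes by its mean pair difference.

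Differences of 2-fold or more lay almost only among weakly expressed genes. In pair 1, 378 genes differed by more than 2-fold, 367 of them in the lowest quartile of expression, and in pair 2 there were 350 genes, 340 of them in that quartile. In both pairs and in the same direction there were 31 genes, 30 of them in the lowest quartile, and 32 genes differed by as much in opposite directions. Between replicates 1 and 2, in comparison, 1140 genes differed by more than 2-fold in the same direction in both groups, and 653 of these were in the lowest quartile.

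At a smaller difference of over 0.5 log2 units, 150 genes (1.07%) were higher and 111 genes (0.791%) lower in the switched cells in both pairs, while 255 genes had such differences of opposite sign. The genes that moved together were thus about as many as those that moved apart. The correlation of pair 1 with pair 2 across 14034 genes was r = 0.018 (Spearman's rho 0.046).

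**Figure D3:**
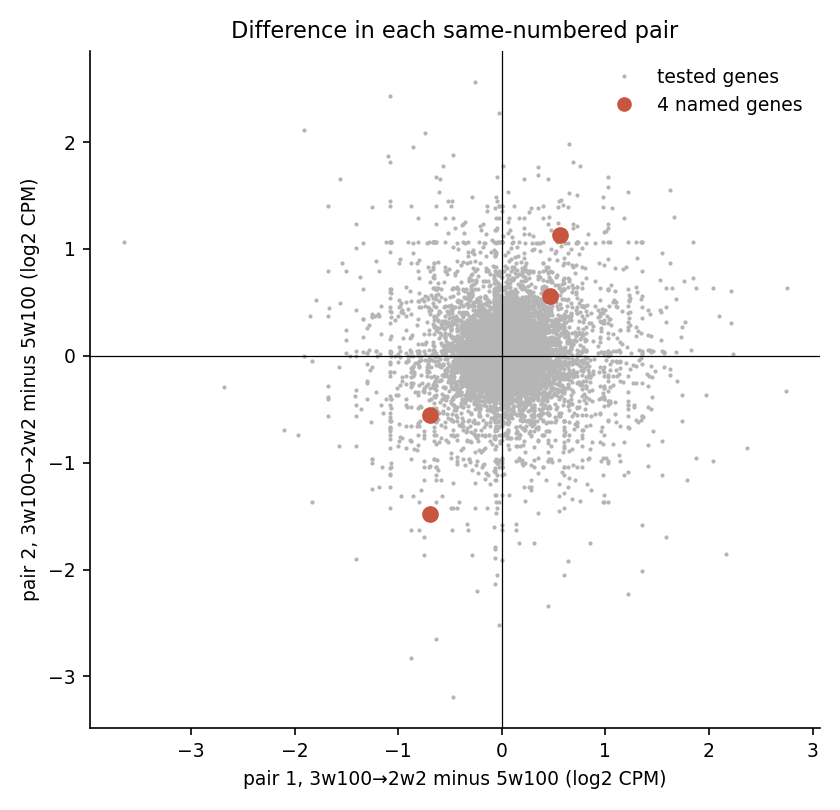
Difference switched minus kept in log2 CPM in pair 1 (horizontal) and pair 2 (vertical), with 1 grey point for each of 14034 tested genes and the 4 genes called with the block in red. The cloud has no slope (r = 0.018). The red points lie where both pairs have one sign, a position favoured by their choice with the blocked fit on the same libraries.

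The spread of the pair differences fell with expression level. In the lowest quartile of genes (mean below 3.46 CPM) their SD across genes was 0.60 in pair 1 and 0.58 in pair 2, and in the highest quartile (above 49.5 CPM) it was 0.12 and 0.14. The difference between replicates was larger at each level, with an SD of 1.09 and 1.18 in the lowest and 0.37 and 0.42 in the highest quartile for switched and kept cells. The correlation of the pairs was r = 0.0015, 0.047, 0.085 and 0.14 from the lowest to the highest quartile.

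**Figure D4:**
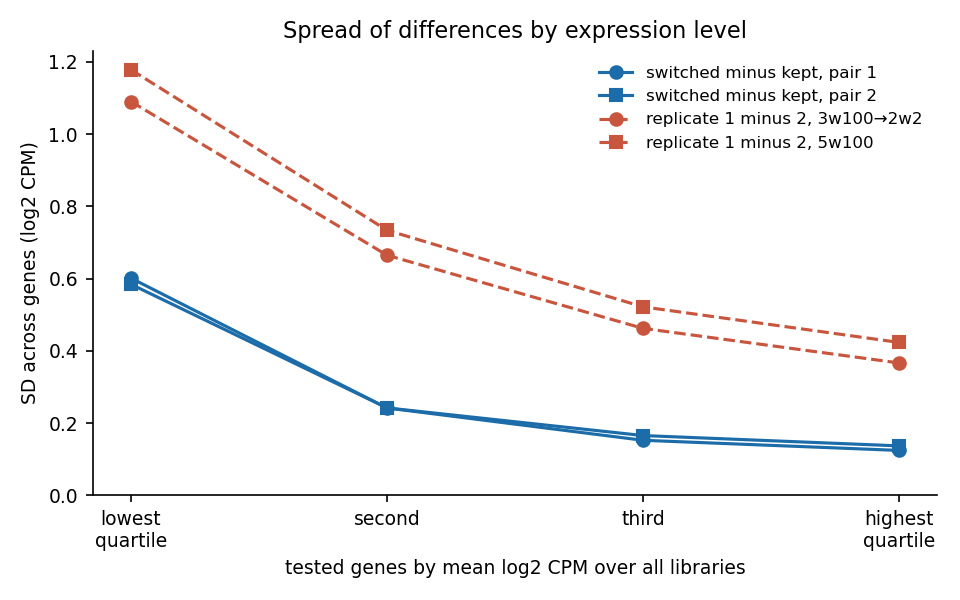
SD across genes of the difference in log2 CPM (vertical axis) in each quartile of the genes by expression level (horizontal axis). Blue lines give switched minus kept in pairs 1 and 2, and red dashed lines give replicate 1 minus replicate 2 within a group. The blue lines lie below the red ones at every level, ending at 0.12 and 0.14 against 0.37 and 0.42.

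Genes were next grouped by their differences between groups of 1-week and 3-week libraries, none of them switched or kept cells. The spread in these tests and the filter on low counts were still taken over all 20 libraries, with the switched and kept ones. The first list held 404 of 14034 tested genes, higher on stiff than on soft at week 3 (unadjusted edgeR p below 0.05). Here 3w100 was set against 3w2, cells with 3 weeks on 2 kPa. The threshold was not adjusted for the number of tests, so genes without a surface difference can be in the list. After the switch 149 of the 404 genes (36.9%) were lower in both pairs and 62 (15.3%) higher in both. All tested genes had 26% lower and 25.6% higher. Their median difference was -0.040 log2 units in pair 1 and -0.056 in pair 2, against 0 in each pair for all genes. By over 0.5 log2 units in both pairs, 1 of the 404 genes was lower and 5 were higher, against 0.791% lower and 1.07% higher among all tested genes.

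The second list held 459 of the 14034 genes, higher on soft at week 3 at the same unadjusted threshold. In the switched cells 150 of them (32.7%) were higher in both pairs and 84 (18.3%) lower in both. The median was 0.10 log2 units in pair 2 and -0.015 in pair 1, so the pairs differed in sign. At week 3 the median differences of the lists between surfaces were 0.54 and -0.53 log2 units (stiff minus soft). The lists were chosen on those same differences, so their size cannot be set against the medians after the switch. When only the 113 and 130 list genes with a week-3 difference of at least 2-fold were taken, the medians after the switch were 0.011 and -0.0063, with a sign opposite to that of the whole lists.

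Across single genes, the pairs differed on one axis and not on the other. In the highest quartile of expression, the week-3 difference soft minus stiff correlated with switched minus kept at r = -0.028 in pair 1 and 0.34 in pair 2 (3509 genes, as a description). Over all genes r was -0.066 and 0.094. The change on stiff from week 1 to week 3 correlated with switched minus kept at r = -0.12 and -0.20 in the highest quartile, and at -0.041 and -0.071 over all genes, with a negative sign in both pairs.

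Genes gained or lost during priming made up the other lists. Of 540 genes that rose on 100 kPa from week 1 to week 3 (edgeR adjusted p below 0.05), 237 (43.9%) were lower in both pairs after the switch and 85 (15.7%) higher in both, with medians of -0.050 and -0.048 log2 units. The gained genes had a median level of 5.45 log2 CPM, against 4.13 for all tested genes. Among tested genes of at least median level, 30.3% were lower and 23% higher in both pairs. Of 640 genes that fell from week 1 to week 3, 87 (13.6%) were lower in both pairs and 166 (25.9%) higher in both, with medians of 0 and 0.037. All tested genes had 26% lower and 25.6% higher, so the share of higher genes was close to that of all genes. The lost genes were weakly expressed, with a median level of 0.316 log2 CPM. In stiff-primed pair 2, genes without a difference came out minutely negative through rounding. Such genes could count as lower in both pairs, and not as higher, in any list and among all tested genes. How many there were was not counted. ENSRNOG00000015055 belonged to the first of these lists and to the genes higher on stiff at week 3, and the other three called genes belonged to none of the 4 lists. The same lists were counted in soft-primed cells, as 5w2 minus 3w2→2w100, where 19.2% of all genes were lower and 21.1% higher in both pairs. Of the gained genes, 33.9% were lower and 13% higher there, and of the lost genes 13.8% and 26.6%. Of the genes higher on stiff at week 3, 27.2% were lower and 20.8% higher, and of those higher on soft 14.2% and 25.7%. Each of the 4 lists thus had its larger share on the same side as in stiff-primed cells. The medians of the soft-primed pairs 1 and 2 differed in sign for the week-3 lists. They were -0.055 and 0.011 log2 units for genes higher on stiff, and 0.13 and -0.042 for those higher on soft. For gained genes they were -0.0265 and -0.0498, and for lost genes 0 and 0.

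**Figure D5:**
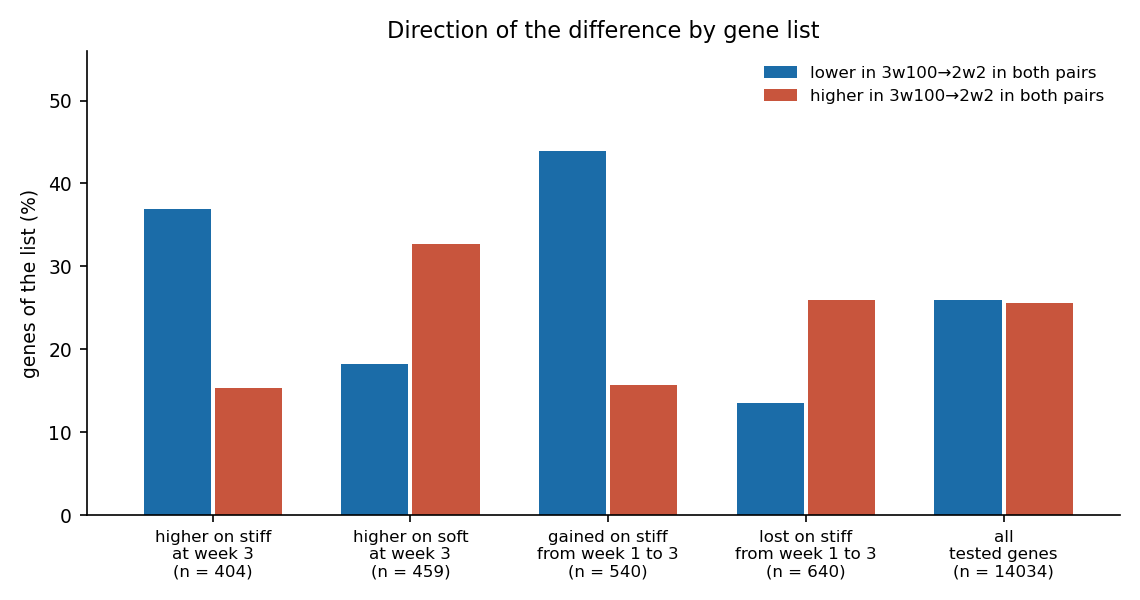
Share of each gene list (vertical axis, percent) that was lower (blue) or higher (red) in 3w100→2w2 than in 5w100 in both pairs. The lists on the horizontal axis were set by differences between groups of 1-week and 3-week libraries, with the spread taken over all 20 libraries. Among genes higher on stiff at week 3 the shares are 36.9% and 15.3%, among all tested genes 26% and 25.6%.

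Finally, the effect of the current surface after stiff priming was set against that after soft priming, taken as 5w2 minus 3w2→2w100, which shares no library with it. The test of the difference between both effects called 0 of 14034 genes without a block (50 at an unadjusted edgeR p below 0.05) and 1 of 13112 genes (0.00763%) with the block. For the 4 genes above, the blocked difference of the effects had an edgeR adjusted p of 1 each. ENSRNOG00000008697, ENSRNOG00000019648 and ENSRNOG00000019422 had the same sign in all 4 pairs of the 5-week groups, for example -0.69, -0.55, -0.38 and -0.43 log2 units for ENSRNOG00000008697. ENSRNOG00000015055 was lower on soft in soft-primed pair 1 (-0.64) and higher in soft-primed pair 2 (0.34), where it had 4 and 7 counts.

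In the highest quartile of expression, the stiff-primed differences resembled those of 1 soft-primed pair. Soft-primed pair 1 correlated with the stiff-primed pairs at r = 0.47 and 0.55, whereas soft-primed pair 2 gave r = -0.085 and -0.11. The stiff-primed pairs correlated with each other at only r = 0.14, and the soft-primed pairs at r = -0.44. These r are across 3509 genes that share library, depth and composition effects, and what they reflect was not tested.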

How the data were processed

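RNA-seq of 4 stiff-primed 5-week libraries was analysed within a table of 20 libraries. The values are raw read counts for each Ensembl gene as deposited by the authors, with no scaling. Per the methods, adapters were trimmed (TrimGalore!), reads aligned to the rat assembly mRatBN7.2 (HISAT2) and assigned to genes (FeatureCounts). No source used here gives versions or the strand setting, which leaves genes that overlap or have near copies uncertain. All 30560 rows name a gene. In the reference table used here 0 identifiers matched a symbol, so gene lists, marker checks and sequences were not used here.

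Counts were tested in R 4.3.3 with edgeR 4.0.16 (TMM, filterByExpr with a minimum count of 10 and total of 15, quasi-likelihood test, 8 groups, no block), with DESeq2 1.42.0 as an alternative. The threshold was a Benjamini-Hochberg adjusted p of 0.05. CPM were computed with TMM factors, and log2 CPM with a prior count of 2. Of the fits of switched against kept cells, edgeR with and without a block and DESeq2 with a block were also run on simulated counts. The test of the difference of the surface effects and the other alternatives were not. The genes named are those called with priming surface and number as a block, 2 in each direction. A further part of the rule, the smallest p without the block, would have gone over 2 identifiers in each direction and was not printed. Same-numbered 5-week libraries of one priming surface were treated as pairs. Their deviations from the group means correlated at r = 0.802 after stiff and 0.76 after soft priming. Between groups of different priming surface, r was only 0.168 to 0.245. Alternatives were other fits, filters, scalings, thinned counts, thresholds and single libraries left out. A group reduced to 1 library borrowed the spread of the other groups. The comparison, lists and tests were chosen with earlier results of these data known.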

Additional observations from a re-analysis of the deposited data

Results flagged for a closer look

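One gene differed between the effect of the current surface after stiff priming and that after soft priming, by the test of that difference with priming surface and number as a block. The log2 difference of the effects was 4.83 (standard error 0.83, edgeR adjusted p = 0.0103). On all 8 groups without a block, the standard error was 1.84 in edgeR and 1.8 in DESeq2. It is a weakly expressed gene, with 9 and 52 counts in the switched libraries 1 and 2, 37 and 11 in the kept libraries, 4 and 2 in 5w2, and 99 and 14 in 3w2→2w100. The stiff-primed pairs differed in sign, with the switched library lower in pair 1 and higher in pair 2, whereas both soft-primed pairs were lower on soft. Without a block the log2 difference was 4.89 with an edgeR adjusted p of 1, and the blocked fit lost the call without stiff-primed pair 2, soft-primed pair 1 or soft-primed pair 2. The log2 difference was then 2.45, 3.32 and 5.30, with edgeR adjusted p of 1, 0.222 and 1. Without stiff-primed pair 1 it was 6.84 and remained called.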

How the results depend on the processing

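The count of 0 genes between switched and kept cells was also 0 in 12 other fits: DESeq2, the 4 libraries alone with either tool, the number as a replicate block on all 20 libraries, RLE factors, both filters, thinned counts, and each of the 4 libraries left out. It was 87 at an unadjusted p. With a replicate block, edgeR called 4 genes on the 8 five-week libraries and 7 on the groups compared, and DESeq2 called 1. Chosen after seeing the data, the block on the 8 libraries gave 6 genes with the filter over all 20 libraries, 6 with RLE factors, 10 and 7 without stiff-primed pair 1 or 2, and 40 and 5 without soft-primed pair 1 or 2. For the difference of both surface effects, the count was 0 without a block in each fit and with any library left out, 50 at an unadjusted p, 0 with the number as a replicate block on all 20 or on the 8 libraries, and 1 with priming surface and number as the block. The latter block gave 1 with the wider filter, 1 with RLE factors, 1 and 3 without stiff-primed pair 1 or 2, and 19 and 0 without soft-primed pair 1 or 2. For ENSRNOG00000019648 the sign turned in the fits without the kept library 2 (-0.16) and the switched library 1 (-0.83), in a range of -0.83 to 2.61 over single libraries left out. Apart from these, the fold changes of the 4 genes kept their direction. Shares of genes higher in both pairs were 3.87% at 0.25 and 0.128% at 1 log2 unit, and of those lower 2.66% and 0.0926%. The median of genes higher on stiff at week 3 was -0.063 among genes of at least median level, 0.011 among genes with a 2-fold week-3 difference, and -0.056 to -0.040 with either pair left out. That of genes higher on soft was -0.015 to 0.10. The cause of these changes was not tested. Both the 2 libraries in each group and the depth limit the precision, and their parts were not compared.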
